A study of Homo sapiens with 9 samples.

Results

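The genes of cholesterol and fatty acid synthesis were followed in LN229 glioblastoma cells after CRISPR targeting of ARNT2. The set held 35 genes out of the 19356 in the table. They were taken by symbol from a list of the SREBP pathway, of sterol and fatty acid enzymes and of genes of cholesterol efflux. Polyadenylated RNA was sequenced from 3 libraries each of the knockout line C4, the knockout line B3 and unedited wild-type cells (WT). All cells were grown in DMEM with 5% FBS, so serum lipids were present in every group. Each knockout is represented by a single line, and the labels do not say whether a line grew from 1 cell, so an effect of the lost gene and a difference peculiar to a line cannot be told apart within a comparison. Nothing in the labels tells whether the 3 libraries of a group are separate cultures, so every p-value here reflects library-to-library spread that could be technical alone. The study asked how ARNT2 affects growth and differentiation of glioblastoma cells.

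Cells make cholesterol from acetyl-CoA by the mevalonate pathway, and fatty acids from the same precursor. Most enzymes of both routes are under the SREBP transcription factors, encoded by SREBF1 and SREBF2. When membranes are poor in sterol, the escort protein SCAP carries the SREBP precursor to the Golgi for cleavage. When sterol is plentiful, INSIG1 and INSIG2 hold the complex in the endoplasmic reticulum. Oxysterols switch on a second set of genes through the nuclear receptor LXR, among them the cholesterol exporters ABCA1 and ABCG1. Glioblastoma cells are known for their need of cholesterol and of newly made fatty acids.

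Expression values are deposited log2 values, scaled between libraries, and the weakest genes lie close to their own mean in them, so changes of such genes may be understated. Read depth is unknown. Library medians over all genes were 10.62 to 10.65. ARNT2 itself had log2 values of 12.05 to 12.22 in C4 and 11.86 to 11.91 in B3, against 13.56 to 13.59 in WT. Of the glial markers, VIM, S100B, NES, CD44, TNC and FABP7 lay between 14.53 and 18.23 in all 9 libraries, while GFAP (6.61 to 6.98) and SOX9 (4.09 to 4.23) were weak. Of the markers of other cell types, the immune markers PTPRC and CD3E and the endothelial marker TEK did not pass the filter on low values. Others were detected above GFAP: the macrophage marker CD68 at 10.68 to 10.99, the endothelial marker VWF at 8.48 to 8.95 and the keratin genes KRT14 and KRT5 at 8.47 to 9.03 and 7.35 to 8.28. The 10 glial markers summed to log2 values of 19.17 to 19.21 in C4, 19.29 to 19.34 in B3 and 19.20 to 19.22 in WT. The sums were 10.78 to 10.79, 11.02 to 11.07 and 10.77 to 10.82 in those groups for the 6 immune markers, and 9.66 to 10.16, 9.89 to 10.09 and 9.82 to 10.08 for the 6 epithelial markers. For the 5 endothelial markers they were 9.24 to 9.29, 8.99 to 9.06 and 9.25 to 9.33. The part of these shifts in the results was not tested.

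All 35 genes passed the filter on low values, a mean of at least 10 over the libraries after undoing the log. A gene was called at a limma adjusted p under 0.05. In C4 against WT, 24 of the 35 rose, 4 fell and 7 were not called, where 56.2% of the 16457 genes tested were called, 28.2% higher and 28% lower. In B3 against WT, 17 rose, 9 fell and 9 were not called, where 47.9% of all genes were called, 23.2% higher and 24.6% lower. In C4 against B3, the test of the difference between the lines, 22 were higher in C4, 4 were lower and 9 were not called, where 56.4% of all genes were called, 28.6% higher and 27.8% lower. All 3 C4 libraries lay above all 3 WT libraries for 24 members and below them for 4, as for 30.5% and 30.2% of all genes. The B3 libraries lay above WT for 17 members and below for 8, as for 26.4% and 27.4% of all genes. The C4 libraries lay above B3 for 22 members and below for 4, as for 31.4% and 30.9% of all genes. The median change of the 35 genes was 0.17 in C4 against WT and 0.08 in B3 against WT, where the median over all genes was 0.001 in C4 and 0 in B3. Between the lines it was 0.10 (C4 minus B3), where the median over all genes was 0.001. Fewer expressing cells and less RNA per cell cannot be told apart in these bulk libraries. The changes were small in size: the largest was FADS2 in C4 at 1.77-fold, and the SD of a gene within a group was 0.0972 or less on the log2 scale. Both knockout lines were compared with the same 3 WT libraries. Averaged over the 35 genes, the libraries lay between 13.347 and 13.364 in C4, 13.232 and 13.245 in B3 and 13.156 and 13.193 in WT, so the 3 groups did not overlap in this mean.

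**Figure D1:**
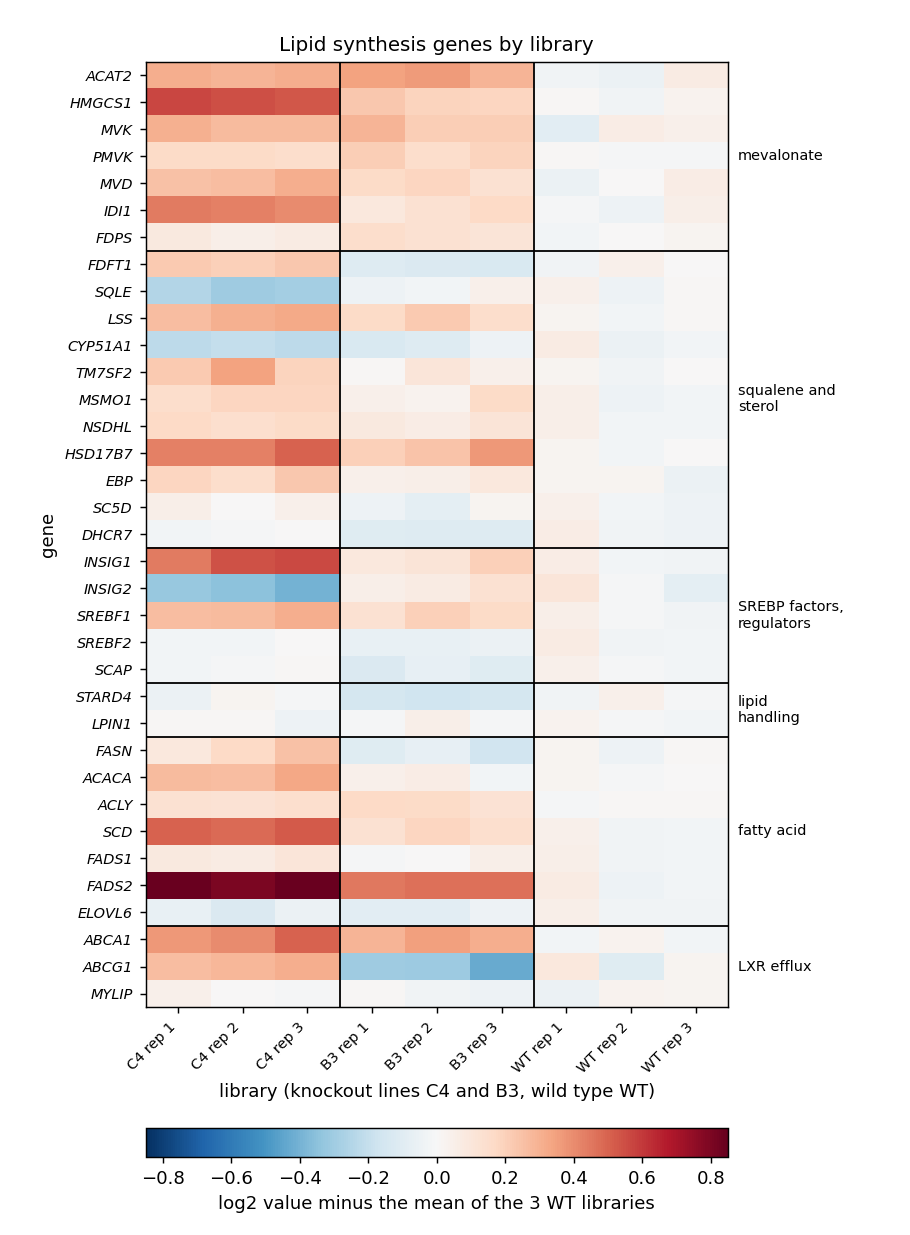
Each row is a gene and each column a library, ordered C4, B3 and WT; the colour gives the log2 value minus the mean of the 3 WT libraries of that gene. The 7 mevalonate genes are red in all C4 and B3 columns, while SQLE and INSIG2 are blue in the C4 columns and ABCG1 is blue in the B3 columns.

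The mevalonate steps rose as a block. All 7 of their genes were called higher in C4, where 28.2% of all genes were, and all 7 in B3, where 23.2% were. For each of them the 3 C4 and the 3 B3 libraries lay above the 3 WT libraries. Over all genes this held for 30.5% in C4 and 26.4% in B3. The median change of the 7 genes was 0.28 in C4 and 0.19 in B3, each against WT. HMGCS1, which makes HMG-CoA from acetyl-CoA and acetoacetyl-CoA, had log2 values of 13.89, 13.87 and 13.85 in C4, 13.55, 13.51 and 13.50 in B3 and 13.33, 13.29 and 13.35 in WT. The 3 groups were fully separated in the order C4, B3, WT. HMGCS1 was 1.46-fold higher in C4 (0.55 ± 0.02 on the log2 scale, SE, limma adjusted p = 2.8e-15) and 1.15-fold higher in B3 (0.20 ± 0.02, adjusted p = 2.74e-07). IDI1, the isomerase that makes the second isoprene unit from isopentenyl diphosphate, showed the same order. Its log2 values were 13.46, 13.45 and 13.42 in C4, 13.11, 13.15 and 13.19 in B3 and 13.01, 12.98 and 13.07 in WT. HMGCS1 and IDI1 were also higher in C4 than in B3, by 0.35 ± 0.02 and 0.29 ± 0.03 (adjusted p = 9.36e-12 and 2.25e-09).

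Of the other 5 mevalonate genes, MVD and FDPS differed between the lines, and ACAT2, MVK and PMVK were not called there. ACAT2, a cytosolic thiolase that joins acetyl-CoA units, had log2 values of 11.79, 11.77 and 11.79 in C4, 11.82, 11.84 and 11.77 in B3 and 11.45, 11.43 and 11.55 in WT. The C4 and B3 libraries overlapped, and all lay above WT, with changes of 0.31 ± 0.03 in C4 and 0.34 ± 0.03 in B3. The mevalonate kinase gene MVK changed by 0.28 ± 0.04 in C4 and 0.23 ± 0.04 in B3, and the phosphomevalonate kinase gene PMVK by 0.16 ± 0.03 and 0.19 ± 0.03 in those lines. For ACAT2, MVK and PMVK the difference between the lines was not called, at -0.03 ± 0.03, 0.04 ± 0.04 and -0.03 ± 0.03 (C4 minus B3). MVD, the decarboxylase that closes the mevalonate branch, rose by 0.27 ± 0.03 in C4 and 0.15 ± 0.03 in B3, and was higher in C4 than in B3 by 0.12 ± 0.03 (adjusted p = 0.00211). FDPS, which builds farnesyl diphosphate, rose by 0.07 ± 0.02 in C4 and 0.13 ± 0.02 in B3. It was the only mevalonate gene called lower in C4 than in B3 by limma (-0.06 ± 0.02, adjusted p = 0.0181). That FDPS difference was not called without B3 replicate 1 (-0.054, adjusted p = 0.0840) or without C4 replicate 2 (-0.055, adjusted p = 0.0828). ACAT2 shares 1141 of its 4299 annotated exon bases with SOD2 and 397 with TCP1, both on the opposite strand (GENCODE 29). SOD2 changed by -0.97 in C4 and -0.40 in B3, and TCP1 by 0.01 in C4 and 0.19 in B3. Whether the counting used strand is not given in the sources used here, so the ACAT2 values are uncertain. MVK, IDI1, FDPS and HMGCS1 also share exon bases with genes on the opposite strand, from 306 bases for MVK to 703 for HMGCS1.

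**Figure D2:**
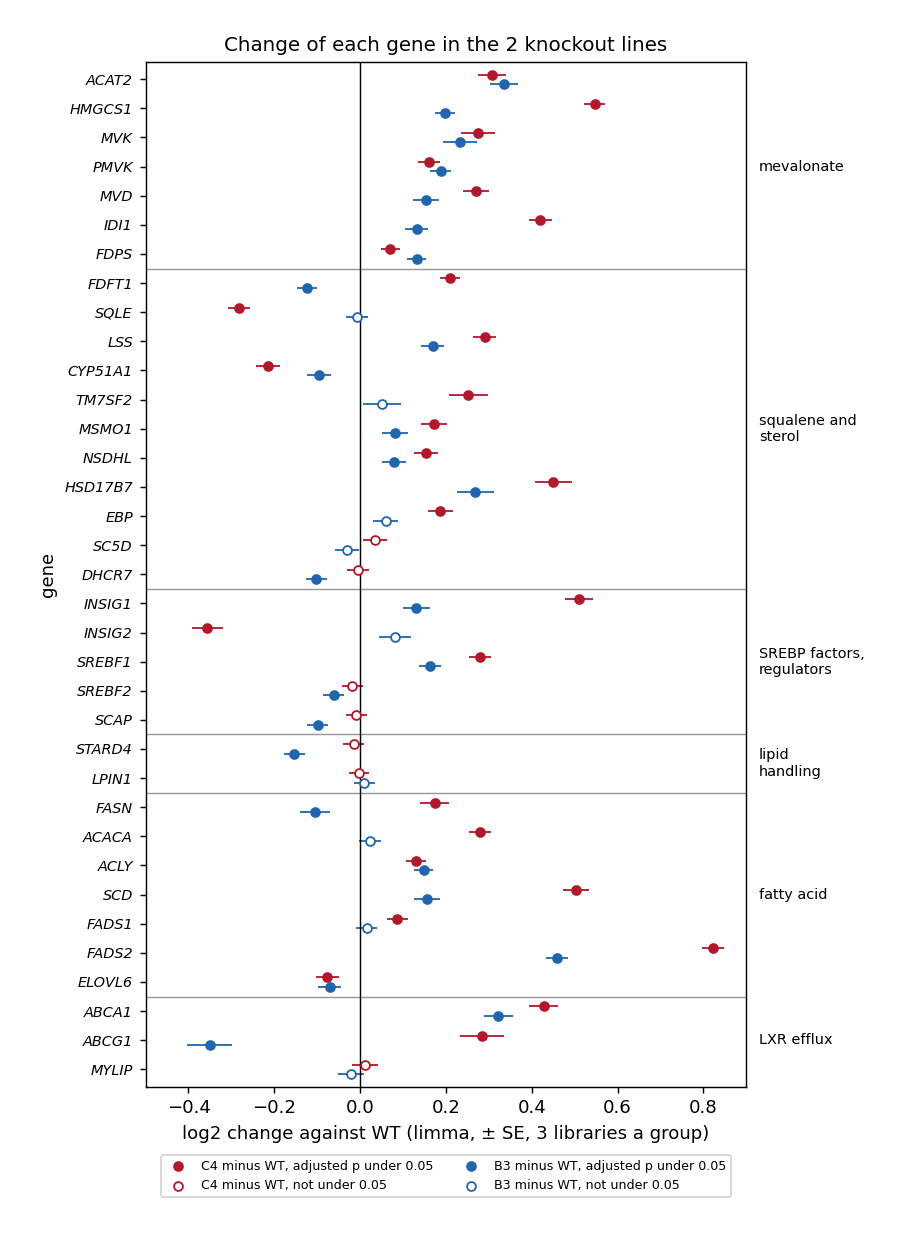
Points give the log2 change of each gene in C4 (red) and B3 (blue) against WT from limma, bars the SE with 3 libraries a group; filled points passed an adjusted p of 0.05. All mevalonate points lie right of 0 in both lines, whereas FDFT1, FASN and ABCG1 lie right of 0 in C4 and left of 0 in B3.

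The enzymes from squalene to cholesterol were mixed. Of 11 genes, 7 rose and 2 fell in C4, and 4 rose and 3 fell in B3. In C4 28.2% of all genes were called higher and 28% lower, and in B3 23.2% and 24.6%. Higher in C4 and B3 were LSS, the cyclase that forms lanosterol (0.29 ± 0.03 in C4 and 0.17 ± 0.03 in B3), and HSD17B7, a 3-ketosteroid reductase. HSD17B7 had log2 values of 10.69, 10.69 and 10.76 in C4, 10.46, 10.50 and 10.63 in B3 and 10.28, 10.24 and 10.26 in WT. The 3 groups did not overlap, and HSD17B7 rose by 0.45 ± 0.04 in C4 and 0.27 ± 0.04 in B3. The pseudogene HSD17B7P2 is a close copy, and counting could have split reads between them. The demethylation genes MSMO1 and NSDHL rose by 0.17 ± 0.03 and 0.15 ± 0.03 in C4. In B3 they were near the threshold, at 0.08 ± 0.03 each (adjusted p = 0.0340 for MSMO1 and 0.0245 for NSDHL). The MSMO1 call in B3 ended without B3 replicate 3 (0.039, adjusted p = 0.290), WT replicate 2 (0.060, 0.157) or WT replicate 3 (0.075, 0.0990), and with no intensity trend in the fit (0.081, 0.0899). The NSDHL call in B3 ended without WT replicate 2 (0.066, adjusted p = 0.0995), WT replicate 3 (0.069, 0.0930), B3 replicate 1 (0.080, 0.0544) or B3 replicate 3 (0.066, 0.0913). TM7SF2, a sterol C14 reductase, and EBP, the sterol isomerase, rose by 0.25 ± 0.05 and 0.19 ± 0.03 in C4, and in B3 their changes of 0.05 ± 0.05 and 0.06 ± 0.03 were not called. SC5D, the sterol C5 desaturase, was called in none of the 3 comparisons, with changes of 0.03 ± 0.03 in C4, -0.03 ± 0.03 in B3 and 0.06 ± 0.03 in C4 against B3. DHCR7, which catalyses the last reduction to cholesterol, fell by 0.10 ± 0.03 in B3 and was at -0.01 ± 0.03 in C4.

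FDFT1, SQLE and CYP51A1 each fell in at least 1 line. FDFT1, the squalene synthase gene, had log2 values of 15.33, 15.31 and 15.34 in C4, 15.00, 14.99 and 14.98 in B3 and 15.08, 15.15 and 15.11 in WT. C4 lay above and B3 below WT, with changes of 0.21 ± 0.02 in C4 and -0.12 ± 0.02 in B3 (adjusted p = 4.89e-08 and 0.000114). The lines differed by 0.33 ± 0.02 (C4 minus B3, adjusted p = 1.68e-11). SQLE, the squalene epoxidase gene and a flux-limiting step of the pathway, had log2 values of 13.15, 13.10 and 13.11 in C4, 13.36, 13.38 and 13.44 in B3 and 13.44, 13.36 and 13.41 in WT. Only the C4 libraries stood apart: SQLE fell by 0.28 ± 0.03 in C4, to 82.3% of the WT level (adjusted p = 3.23e-09), and was at -0.01 ± 0.03 in B3. CYP51A1, the lanosterol demethylase gene, had log2 values of 14.46, 14.48 and 14.46 in C4, 14.55, 14.57 and 14.64 in B3 and 14.75, 14.63 and 14.66 in WT. It fell by 0.21 ± 0.03 in C4, where the libraries did not overlap with WT, and by 0.10 ± 0.03 in B3, where they did. Of the 3584 exon bases of CYP51A1, 2844 are shared with AC000120.2, an overlapping gene on the same strand in GENCODE 29, so counting could have left out reads of either gene.

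SQLE and INSIG2 in C4, and FDFT1 and STARD4 in B3, lie in stretches of chromosome whose other genes moved the same way. The median shift of the neighbours was smaller around CYP51A1 in C4 and FASN in B3. Within 2.5 Mb on either side of SQLE (chromosome 8, 124998497 to 125022283, plus strand, GRCh38), the 25 other tested genes had a median change of -0.27 in C4, against a change of -0.28 for SQLE itself. Of these 25, 18 were called lower and 1 higher. Beside these and the following counts, 28% of all genes were called lower and 28.2% higher in C4. In B3 the shares over all genes were 24.6% and 23.2%. In B3, where SQLE was not called, the median of the same 25 genes was 0.03. INSIG2 (chromosome 2, 118088452 to 118110997, plus strand) had 13 tested neighbours with a median of -0.35 in C4, of which 10 were lower and none higher, and INSIG2 itself was at -0.36. In B3 the median of these neighbours was -0.002. Around FDFT1, on the short arm of chromosome 8, the median of 12 genes was -0.20 in B3 with 9 lower and none higher, and 0.01 in C4. Around STARD4 on chromosome 5 the 18 neighbours had a median of -0.13 in B3, with 11 lower and 1 higher, and of 0.06 in C4. CYP51A1 had 28 neighbours on chromosome 7 with a median of -0.10 in C4, 15 lower and 4 higher, and of -0.02 in B3, 8 lower and 6 higher. Around FASN on chromosome 17 the 71 neighbours had a median of 0.01 in C4, 18 lower and 21 higher, and of -0.03 in B3, 28 lower and 8 higher. For the 4 genes that rose most in C4 the neighbours were near 0: the medians were 0.03 for FADS2, -0.01 for HMGCS1, -0.06 for INSIG1 and 0.01 for SCD. The part of these stretches in the changes of SQLE, INSIG2, FDFT1, STARD4, CYP51A1 and FASN was not tested.

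**Figure D3:**
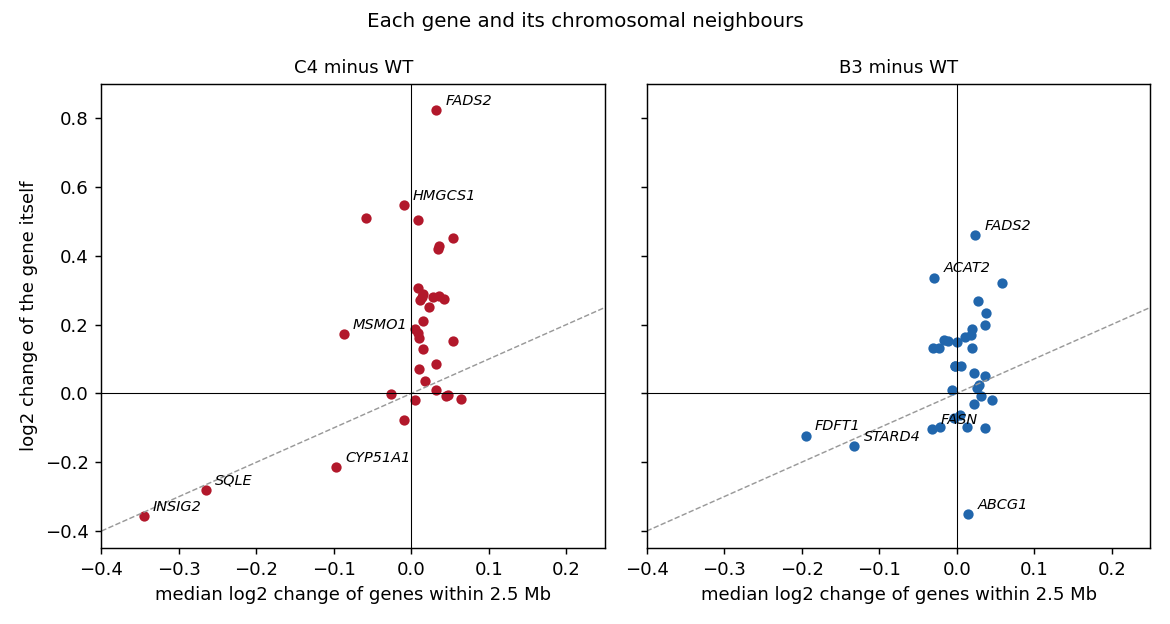
Each point is a gene of the set; the horizontal axis is the median log2 change of the tested genes within 2.5 Mb and the vertical axis the change of the gene itself, in C4 (left) and B3 (right) against WT, with equality as a dashed line. INSIG2 and SQLE in C4 and FDFT1 and STARD4 in B3 lie near the dashed line, while FADS2 at 0.82 in C4 has neighbours at a median of 0.03.

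The SREBP regulators did not move together. INSIG1, itself a classical SREBP target and the inducible brake of the pathway, had log2 values of 13.57, 13.67 and 13.69 in C4, 13.22, 13.24 and 13.33 in B3 and 13.19, 13.11 and 13.10 in WT. The groups did not overlap, and INSIG1 rose by 0.51 ± 0.03 in C4 and 0.13 ± 0.03 in B3 (adjusted p = 4.06e-12 and 0.00185). Its paralogue INSIG2, which is not known as an SREBP target, had log2 values of 11.66, 11.63 and 11.58 in C4, 12.03, 12.05 and 12.11 in B3 and 12.08, 11.97 and 11.90 in WT. The C4 libraries lay below all others, with a change of -0.36 ± 0.04 (adjusted p = 1.86e-08), and B3 and WT overlapped, with 0.08 ± 0.04 (adjusted p = 0.0782). INSIG2 in B3 was called higher without WT replicate 1 (0.131, adjusted p = 0.00216). It was also called higher with every library at the same total (0.114, adjusted p = 0.0146) or the same median (0.092, adjusted p = 0.0412). Its adjusted p ran between 0.00216 and 0.441 across the alternatives. SREBF1, whose products drive mainly fatty acid genes, rose by 0.28 ± 0.03 in C4 and 0.16 ± 0.03 in B3. Its log2 values were 14.65, 14.66 and 14.70 in C4, 14.52, 14.59 and 14.55 in B3 and 14.44, 14.38 and 14.36 in WT, again without overlap. SREBF2, the main factor of the sterol genes, was at -0.02 ± 0.03 in C4 and -0.06 ± 0.03 in B3. The B3 value barely passed (adjusted p = 0.0477) and lost its call under 14 of 19 alternatives. SCAP fell by 0.10 ± 0.02 in B3 and was at -0.01 ± 0.02 in C4.

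Upstream stretches of 4 members are printed to show the letters that were searched: SREBF2, the only member promoter with the full sterol response element, and HMGCS1, INSIG1 and FADS2, which were called in all 3 comparisons. Each is the 250 bases before the RefSeq start on GRCh38.p14, 5′ to 3′ on the strand of the gene. Capitals mark the sterol response element (the core CACCCCAC preceded by AT), the CCAAT box (CCAAT or, on the other strand, ATTGG) and the E-box CACGTG. The shorter core ACGTG was also searched but is not marked on its own. INSIG1 holds it outside the E-box as well, in lower case, as CACGT on the other strand.
SREBF2, chr22:41832855-41833104, plus strand: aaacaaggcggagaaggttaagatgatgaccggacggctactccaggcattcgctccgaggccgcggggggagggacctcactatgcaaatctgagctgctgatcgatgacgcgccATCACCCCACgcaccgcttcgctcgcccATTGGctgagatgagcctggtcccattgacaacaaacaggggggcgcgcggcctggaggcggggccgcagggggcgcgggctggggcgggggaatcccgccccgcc
HMGCS1, chr5:43313413-43313662, minus strand: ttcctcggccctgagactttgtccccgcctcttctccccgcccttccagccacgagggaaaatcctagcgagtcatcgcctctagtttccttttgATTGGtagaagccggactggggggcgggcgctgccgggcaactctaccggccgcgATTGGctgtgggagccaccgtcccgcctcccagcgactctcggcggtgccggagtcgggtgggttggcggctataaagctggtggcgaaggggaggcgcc
INSIG1, chr7:155297628-155297877, plus strand: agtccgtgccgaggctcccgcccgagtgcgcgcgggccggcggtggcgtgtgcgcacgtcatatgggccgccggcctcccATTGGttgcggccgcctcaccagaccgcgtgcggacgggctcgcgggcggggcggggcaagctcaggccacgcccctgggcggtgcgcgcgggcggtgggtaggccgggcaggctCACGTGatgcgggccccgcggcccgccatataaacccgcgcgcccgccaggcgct
FADS2, chr11:61815953-61816202, plus strand: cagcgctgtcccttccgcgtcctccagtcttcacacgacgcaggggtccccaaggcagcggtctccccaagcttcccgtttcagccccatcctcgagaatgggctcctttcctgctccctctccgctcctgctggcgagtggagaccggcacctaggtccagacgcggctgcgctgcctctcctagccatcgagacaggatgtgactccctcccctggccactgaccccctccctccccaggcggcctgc
RefSeq promoters were available for 30 of the 35 members, and not for ACAT2, FDFT1, SQLE, FASN and ABCG1. Only exact letters were searched, so an element with other letters or outside the 250 bases would be missed. The full element, searched on both strands, was in 1 of these 30 and in 6 of 11671 promoters of tested genes (0.05%), and its core CACCCCAC, which lies within it, was in 2 of 30 (SREBF2 and ABCA1) and in 2.26% of all. A CCAAT box was in 18 of 30 member promoters and in 34.95% of all. HMGCS1 holds the box 2 times, and FADS2, the member with the largest change, holds none of these letters in its window. The FADS2 window (61815953 to 61816202) lies inside the gene as annotated by GENCODE (61792980 to 61867354, plus strand). Bases before that annotated start were not searched, so the absence holds for the printed FADS2 window only. The E-box, which contains the shorter core ACGTG, was in 4 of 30 (ABCA1, INSIG1, SC5D and SCAP) and in 8.56% of all. The core ACGTG, bound by dimers of ARNT-type factors, was in 7 of 30 (23.3%) and in 22.82% of all promoters. A match describes letters only, and these counts carry no test.

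Most fatty acid synthesis genes rose in C4, and B3 was mixed. All 7 were called in C4, 6 higher and 1 lower, where 28.2% of all genes were higher and 28% lower. In B3 there were 3 higher, 2 lower and 2 not called, where 23.2% of all genes were higher and 24.6% lower. FADS2, the delta-6 desaturase that opens the route to long polyunsaturated fatty acids, had log2 values of 15.46, 15.42 and 15.46 in C4, 15.07, 15.09 and 15.09 in B3 and 14.69, 14.58 and 14.60 in WT. The 3 groups were far apart relative to their spread. FADS2 rose by 0.82 ± 0.03 in C4, 1.77-fold (adjusted p = 9.19e-18), by 0.46 ± 0.03 in B3, 1.37-fold (adjusted p = 1.25e-12), and was 0.36 ± 0.03 higher in C4 than in B3 (adjusted p = 2.96e-11). Its neighbour FADS1, the delta-5 desaturase gene, moved little, by 0.09 ± 0.03 in C4, and was not called in B3 at 0.02 ± 0.03. FADS3, the remaining desaturase gene of the cluster and 0.099 Mb from FADS2 between annotated starts, moved the other way. It lay between 11.49 and 11.52 in C4 and 11.46 and 11.58 in B3, against 11.92 to 12.08 in WT, with changes of -0.50 ± 0.04 and -0.48 ± 0.04 in C4 and B3. FADS1 and FADS2 share 490 exon bases on opposite strands, so a few of their reads may be uncertain.

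SCD, the stearoyl-CoA desaturase that makes oleate, had log2 values of 17.55, 17.53 and 17.57 in C4, 17.18, 17.23 and 17.19 in B3 and 17.09, 17.02 and 17.03 in WT. It followed the order C4, B3, WT without overlap and rose by 0.50 ± 0.03 in C4 and 0.16 ± 0.03 in B3. FASN, the fatty acid synthase gene, had log2 values of 16.91, 16.99 and 17.07 in C4, 16.72, 16.75 and 16.66 in B3 and 16.84, 16.78 and 16.83 in WT. C4 lay above and B3 below WT, by 0.17 ± 0.03 and -0.10 ± 0.03 (adjusted p = 0.000143 and 0.0147), and the lines differed by 0.28 ± 0.03 (adjusted p = 2.55e-07). The B3 fall of FASN was not called without WT replicate 3 (-0.100, adjusted p = 0.0531) or B3 replicate 3 (-0.080, adjusted p = 0.0879), and its adjusted p ran between 0.00565 and 0.0893 across the alternatives. ACACA, which makes malonyl-CoA, rose by 0.28 ± 0.03 in C4 and was at 0.02 ± 0.03 in B3, a difference of 0.26 ± 0.03 between the lines (adjusted p = 4.43e-09). ACLY, which supplies cytosolic acetyl-CoA from citrate, rose alike in both, by 0.13 ± 0.02 in C4 and 0.15 ± 0.02 in B3, and the difference of -0.02 ± 0.02 was not called. ELOVL6, the elongase of saturated fatty acids, fell by 0.08 ± 0.03 in C4 and 0.07 ± 0.03 in B3. Both calls ended without WT replicate 1, at -0.050 in C4 (adjusted p = 0.111) and -0.045 in B3 (adjusted p = 0.166).

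**Figure D4:**
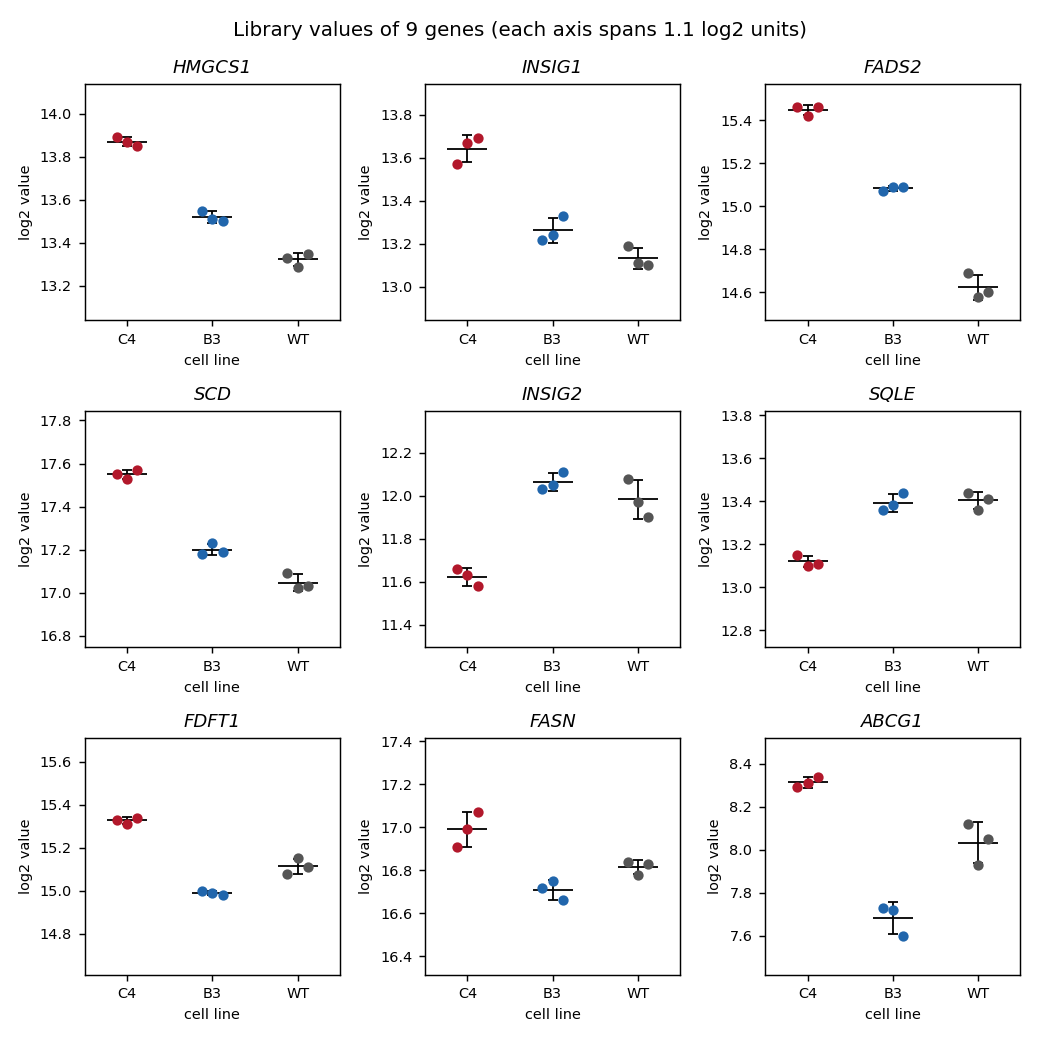
Log2 values of 9 genes in each library (points) with the group mean and SD (black), for C4, B3 and WT; every panel spans 1.1 log2 units. HMGCS1, INSIG1, FADS2 and SCD step down from C4 to B3 to WT, INSIG2 and SQLE are low in C4 alone, and FDFT1, FASN and ABCG1 have B3 lowest.

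The efflux genes under LXR gave a different pattern for each gene. ABCA1, which exports cholesterol to lipid-poor apolipoprotein, had log2 values of 11.66, 11.69 and 11.79 in C4, 11.58, 11.64 and 11.60 in B3 and 11.27, 11.32 and 11.27 in WT. Both lines lay above WT, with changes of 0.43 ± 0.03 in C4 and 0.32 ± 0.03 in B3 (adjusted p = 1.77e-10 and 3.77e-08). The difference between the lines of 0.11 ± 0.03 (adjusted p = 0.0101) was not called without C4 replicate 3 (0.068, adjusted p = 0.108). ABCG1, an exporter to mature lipoprotein particles, had log2 values of 8.29, 8.31 and 8.34 in C4, 7.73, 7.72 and 7.60 in B3 and 8.12, 7.93 and 8.05 in WT. It rose by 0.28 ± 0.05 in C4 and fell by 0.35 ± 0.05 in B3 (adjusted p = 5.52e-05 and 5.48e-06). The difference of 0.63 ± 0.05 between the lines was the largest of the 35 genes (adjusted p = 2.67e-10). MYLIP, an LXR-induced ubiquitin ligase that degrades lipoprotein receptors, was called in none of the 3 comparisons, at 0.01 ± 0.03 in C4, -0.02 ± 0.03 in B3 and 0.03 ± 0.03 between the lines. Of the remaining members, STARD4, a sterol carrier, fell by 0.15 ± 0.02 in B3 (adjusted p = 1.2e-05) and was at -0.02 ± 0.02 in C4. LPIN1, a phosphatidate phosphatase, lay between 13.35 and 13.44 in all 9 libraries and was called in no comparison.

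A further 88 tested genes of lipid metabolism came from 6 lists. In C4 against WT 29 rose and 21 fell with a median of 0.003, so that 56.8% were called, against 56.2% of all genes. In B3 against WT 19 rose and 29 fell with a median of -0.03, and 54.5% were called, against 47.9% of all genes. In C4 against B3 32 were higher and 20 lower with a median of 0.03, and 59.1% were called, against 56.4% of all genes. The lists of SREBP processing (9 genes), of side branches of sterol synthesis (12), of sterol transport and storage (18), of fatty acid supply and elongation (25), of glycerolipid assembly (15) and of LXR receptors and targets (9) had medians between -0.02 and 0.03 in C4 and between -0.07 and 0.03 in B3. Largest in C4 were the rises of C14orf1, a scaffold of sterol enzymes (0.30 ± 0.03), of NPC2, which hands lysosomal cholesterol on (0.29 ± 0.03), and of the elongase gene ELOVL2 (0.28 ± 0.03). The largest decreases in C4 were FADS3 (-0.50 ± 0.04), the weakly expressed CH25H, which makes an oxysterol (-0.45 ± 0.05), and RNF139, a sterol-sensing ubiquitin ligase (-0.44 ± 0.03). RNF139 lies 0.524 Mb from SQLE, within the stretch described for that gene. Among the rises in B3 were the coenzyme Q gene COQ2 (0.30 ± 0.04) and the weakly expressed ACSL5 (0.26 ± 0.05), an acyl-CoA synthetase. The endocytic receptor gene LRP1 (-0.59 ± 0.05), the elongase gene ELOVL4 (-0.51 ± 0.03) and FADS3 (-0.48 ± 0.04) fell most in B3. Between the lines LRP1, ELOVL4 and ELOVL2 were higher in C4 by 0.63 ± 0.05, 0.60 ± 0.03 and 0.42 ± 0.03, and RNF139 and the receptor gene VLDLR were lower by limma, at -0.48 ± 0.03 and -0.36 ± 0.03.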

How the data were processed

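RNA of LN229 cells selected for poly(A) was sequenced in 9 libraries. The submitters' processing notes name genome build hg38 and the tools STAR (2.7.3a), Subread (1.6.3) and DESeq2, without role or order. Values were deposited as log2 expression, already scaled by the authors. Their shape resembles a regularized-log transform, an inference from the spread: the median SD within groups was 0.0452 at values of 8 to 12 and 0.00935 under 2. Depth is not recoverable, so counting intervals are not given.

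The filter was a mean of at least 10 after undoing the log; 16457 genes passed and 2899 did not. Each group had its own coefficient in a single limma fit over all libraries (limma 3.58.1, R 4.3.3), with trended moderation. P-values are two-sided and Benjamini-Hochberg adjusted over all genes tested. Exact permutation of 3 against 3 libraries cannot go below p = 0.1 and was not used. The fit was run on simulated data with independent noise and changes planted in a small part of the genes. Far more genes were called in the real libraries, so the outcome does not carry over to them. Positions come from GENCODE 29 (GRCh38), where 92.6% of tested symbols had 1 position, and promoters from RefSeq (GRCh38.p14). All members are described, and from the other lipid genes the 3 called genes with the largest change each way, apart from 1 gene that is not reported here. Members and lists were chosen with earlier results of these data known. Alternatives were other filters, pseudocounts, scalings and moderation, the compared groups alone, a replicate block and leaving out each library. The labels record no batch or date.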

Additional observations from a re-analysis of the deposited data

Results flagged for a closer look

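For 26 of the 35 genes the effect in C4 and the effect in B3, each against WT, differed by limma (C4 minus B3, adjusted p under 0.05, where 56.4% of all genes tested were called). Higher in C4 were ABCG1 (0.63), INSIG1 (0.38), FADS2 (0.36), HMGCS1 and SCD (0.35 each), FDFT1 (0.33), IDI1 (0.29), FASN (0.28), ACACA (0.26), TM7SF2 (0.20), HSD17B7 (0.18), STARD4 (0.14), EBP (0.13), MVD, LSS and SREBF1 (0.12 each), ABCA1 (0.11), DHCR7 (0.10), MSMO1 and SCAP (0.09 each), and NSDHL and FADS1 (0.07 each). Lower in C4 were INSIG2 (-0.44), SQLE (-0.27), CYP51A1 (-0.12) and FDPS (-0.06). FDFT1, FASN and ABCG1 were called higher in C4 and lower in B3.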

How the results depend on the processing

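Under 19 alternatives, no called member changed sign. In C4 against WT 27 of 28 calls held under all of them, in B3 20 of 26 and in C4 against B3 21 of 26. With every library at the same total, 5 members fell in B3 in place of 9, and 64.2% of the called genes of all kinds were higher in B3, against 48.5% with the deposited scaling, and 61.5% against 50.2% in C4. Leaving out each library gave 8387 to 9272 called genes for C4, 6944 to 8016 for B3 and 8363 to 9596 for C4 against B3. The members called higher then numbered 24 throughout for C4, 15 to 18 for B3 and 19 to 23 for C4 against B3, and those called lower 3 to 4, 7 to 9 and 3 to 4.

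In B3 the call of CYP51A1 ended at the same total (-0.063, adjusted p = 0.0723), and without WT replicate 1 it was smaller (-0.061, adjusted p = 0.0438). SREBF2 was at -0.031 without WT replicate 1 and -0.029 at the same total; its call also ended without WT replicate 3, any B3 library or C4 replicates 2 or 3. ELOVL6 was at -0.038 in B3 and -0.047 in C4 at the same total; its call also ended without B3 replicates 1 or 2 in B3 and without C4 replicate 2 in C4. EBP was called in B3 at the same total (0.093) or the same median (0.072). Between the lines the calls of MSMO1 (0.071 and 0.070 without B3 replicates 1 and 2), NSDHL (0.063 to 0.074 without B3 replicates 1 or 2 or C4 replicates 1 or 3) and FADS1 (0.060 to 0.066 without B3 replicates 1 or 2 or C4 replicate 3) ended, and SC5D was called without WT replicate 1, B3 replicate 3 or C4 replicate 2 (0.065, 0.089 and 0.082). The cause was not tested.

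The values that changed sign were 0.028 or less in size, with adjusted p of 0.283 or more. At the same total these were SQLE (0.026), SC5D (0.003) and MYLIP (0.013) in B3, and DHCR7 (0.024), SREBF2 (0.011), SCAP (0.020), STARD4 (0.014) and LPIN1 (0.026) in C4; SQLE was at 0.004 in B3 at the same median. Leaving out a library, SQLE ranged from -0.030 to 0.012, LPIN1 from -0.008 to 0.023 and FADS1 from -0.002 to 0.041 in B3. In C4, DHCR7 ranged from -0.024 to 0.028, SREBF2 from -0.038 to 0.013, SCAP from -0.022 to 0.011, STARD4 from -0.031 to 0.003, LPIN1 from -0.013 to 0.012 and MYLIP from -0.014 to 0.027. Between the lines LPIN1 ranged from -0.024 to 0.005 and ELOVL6 from -0.017 to 0.017.

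Replicate numbers showed no pairing. After the group mean of each gene was subtracted, same-numbered libraries of different groups correlated at -0.229 to 0.016. The mean of these correlations was highest with the own number for 0 of 9 libraries. With the replicate block 8961 genes were called for C4, 7504 for B3 and 9017 for C4 against B3, and of the members only SREBF2 in B3 lost its call (adjusted p = 0.0746).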
